A study of Mus musculus with 17 samples.

Results

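The 9 genes Hnf4a, Foxa1, Foxa2, Foxa3, Cebpa, Cebpb, Onecut1, Prox1 and Nr5a2 encode transcription factors that define the hepatocyte, and their transcript levels were read from RNA-seq of mouse liver and liver tumors. The genes were taken by symbol from the gene count tables of a high-fat diet (HFD) and a Western diet (WD) series, and all 9 were found among the 19032 genes listed in both tables. The mice were males, either WT or with a liver-specific NgBR (Nus1) KO (N-LKO), and every group had received its diet for 16 weeks. The HFD groups were WT livers (4 libraries) and N-LKO livers (4 libraries). The WD groups had 3 libraries each and were WT livers, N-LKO livers and tumors that grew in N-LKO mice. All were of the C57BL6 background. In N-LKO mice the loxP-flanked NgBR allele is removed by Cre under the albumin promoter, which acts in hepatocytes. The paper names endothelial, stellate and Kupffer cells as liver cells that express NgBR. Whether bile duct cells keep the gene, and whether WT mice carried loxP alleles, was not given in the sources used here. Nor was it given whether tumors and N-LKO livers came from the same animals. NgBR, encoded by Nus1, is a subunit of the enzyme that makes dolichol, the lipid carrier of protein glycosylation. The comparisons asked whether the hepatocyte factors differed between N-LKO and WT liver within each diet, and between tumor and both kinds of liver under WD.

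Hepatocyte identity is held by a network of factors that bind together at the enhancers and promoters of liver genes and also at those of each other. HNF4A and NR5A2 (LRH-1) are nuclear receptors: HNF4A drives apolipoprotein, clotting factor and drug metabolism genes, and NR5A2 acts on bile acid and cholesterol genes. FOXA1, FOXA2 and FOXA3 are forkhead factors that open chromatin for other factors. CEBPA and CEBPB are leucine zipper proteins with the same DNA motif, of which CEBPA is tied to the quiescent, metabolic hepatocyte and CEBPB to the acute phase response and regeneration. ONECUT1 (HNF6) and PROX1 are homeodomain factors of liver development. ONECUT1, FOXA1 and FOXA2 are also made in bile duct cells and PROX1 in lymphatic endothelium, so in bulk tissue these transcripts need not come from hepatocytes alone.

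By GENCODE M21 (GRCm38), Hnf4a lies at chr2:163506808-163572910 and Cebpb at chr2:167688915-167690418, both on the plus strand, and Foxa1 at chr12:57540628-57546916 on the minus strand. Of the others, Foxa2 (chr2:148042877-148046969), Foxa3 (chr7:19013284-19023538), Prox1 (chr1:190118035-190170714) and Nr5a2 (chr1:136842571-136960448) lie on the minus strand and Cebpa (chr7:35119293-35121928) and Onecut1 (chr9:74861921-74891781) on the plus strand. Cebpa and Cebpb are genes of 1 exon. Hnf4a, Cebpb and Foxa1 passed the test in a comparison, and a stretch before a RefSeq start of each is shown for that reason. RefSeq promoter windows (GRCm38.p6, 250 bases before to 50 after a start) were found for 9 of 9 members, in 14 windows. The printed part overlaps no annotated exon, although for Foxa1 it lies inside the span of the gene, downstream of the start of a longer GENCODE transcript. It is given 5′ to 3′ on the strand of the gene, as chr2:163506607-163506807 (plus) for Hnf4a, chr2:167688665-167688914 (plus) for Cebpb and chr12:57546122-57546361 (minus) for Foxa1. Capitals mark matches to the motifs searched.
Hnf4a: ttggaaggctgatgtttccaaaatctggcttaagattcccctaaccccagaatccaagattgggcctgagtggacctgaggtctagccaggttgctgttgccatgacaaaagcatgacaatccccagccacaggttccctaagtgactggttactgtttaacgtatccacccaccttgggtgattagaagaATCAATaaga
Cebpb: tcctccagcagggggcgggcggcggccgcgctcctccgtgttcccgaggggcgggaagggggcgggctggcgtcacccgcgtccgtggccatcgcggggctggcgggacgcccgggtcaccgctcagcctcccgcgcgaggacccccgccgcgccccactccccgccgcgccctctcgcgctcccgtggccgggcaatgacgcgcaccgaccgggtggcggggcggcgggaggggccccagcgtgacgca
Foxa1: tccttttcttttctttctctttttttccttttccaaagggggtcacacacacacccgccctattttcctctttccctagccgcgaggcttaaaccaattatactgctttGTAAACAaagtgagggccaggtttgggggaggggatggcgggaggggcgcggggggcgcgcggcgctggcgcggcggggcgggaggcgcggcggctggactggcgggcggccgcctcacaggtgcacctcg

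For 5 motifs, matches were searched on both strands of the 300-base windows. The ONECUT core ATTGAT was found 59 bases before a RefSeq start of Hnf4a, near the 5′ end of the gene, and 213 bases before 1 of the Foxa2 starts. Of all 32851 windows 7.54% held it. Which start of Hnf4a these livers use was not measured. The FOXA core TGTTTAC was found 141 bases before the start of Foxa1, with 3.65% of all windows holding a match. The C/EBP motif TTGCNNAA occurred at 1 Nr5a2 start, and in 10.8% of all windows. The HNF4 motif CAAAGTCCA and the NR5A2 motif CAAGGTCA had 0 matches in the windows of the members, against 0.475% and 1.56% of all windows. A match is a run of letters in the window, and binding was not measured here.

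Library depth was 9096110 to 12215784 counts under HFD and 15494731 to 20200618 under WD. TMM scaling factors were 0.942 to 1.05 under HFD and 0.806 to 1.15 under WD, the lowest being that of WT liver replicate 2. Nus1, the targeted gene, was lower in every N-LKO library than in every WT library of its diet, at 29.4 to 38.0 against 82.5 to 96.2 CPM (counts scaled to the size of the library) under HFD and at 41.7 to 51.1 against 88.2 to 98.9 CPM under WD, and it was 29 to 44 CPM in tumors. All libraries held hepatocyte RNA: 7 hepatocyte markers (Alb, Ttr, Apoa1, Fgb, Ahsg, Cps1 and Hpd) summed to 34662 CPM or more in each, and none was at 0 in a group. The groups were not alike in that sum, which was 48413 to 60122 CPM in WT livers under WD, 34662 to 44360 CPM in N-LKO livers and 38715 to 67258 CPM in tumors, while under HFD it was 66822 to 77727 CPM in WT and 61602 to 80240 CPM in N-LKO livers. The 7 cholangiocyte markers summed to 33.2 to 49.5 CPM in WT and 69.9 to 118 CPM in N-LKO livers under HFD, and in the WD groups to 29 to 83.7 CPM in WT livers, 130 to 166 CPM in N-LKO livers and 218 to 545 CPM in tumors. The sum in tumors did not reflect most of these markers. Against N-LKO livers their median log2 fold change was −0.65, with 1 of 7 called higher and 0 lower by edgeR. In bulk samples, fewer cells of a type and less RNA per cell cannot be told apart.

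Between genes, levels were compared as CPM per kilobase of transcript. Hnf4a had the highest mean in every group, from 120 CPM per kilobase in N-LKO livers under HFD to 204 in WT livers under WD, followed by Cebpa with 97.5 to 159. The ranges of these neighbours overlapped in every group except the N-LKO livers under WD. Cebpb came next in all 4 liver groups (30.2 to 57.2 CPM per kilobase) and was separate from Cebpa in each. In tumors Cebpb, at 24.5 ± 4.30 CPM per kilobase (SD, n = 3), stood after Prox1 (29.9 ± 1.37) and Foxa3 (25.4 ± 6.01), neighbours whose ranges overlapped. Foxa1 had the lowest mean in all 5 groups, from 4.14 to 6.69 CPM per kilobase, and only in WT livers under HFD was its range separate from that of the next gene. Foxa1 had at most 229 counts per library under HFD and 393 under WD, whereas Hnf4a had 3747 to 16577.

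**Figure D1:**
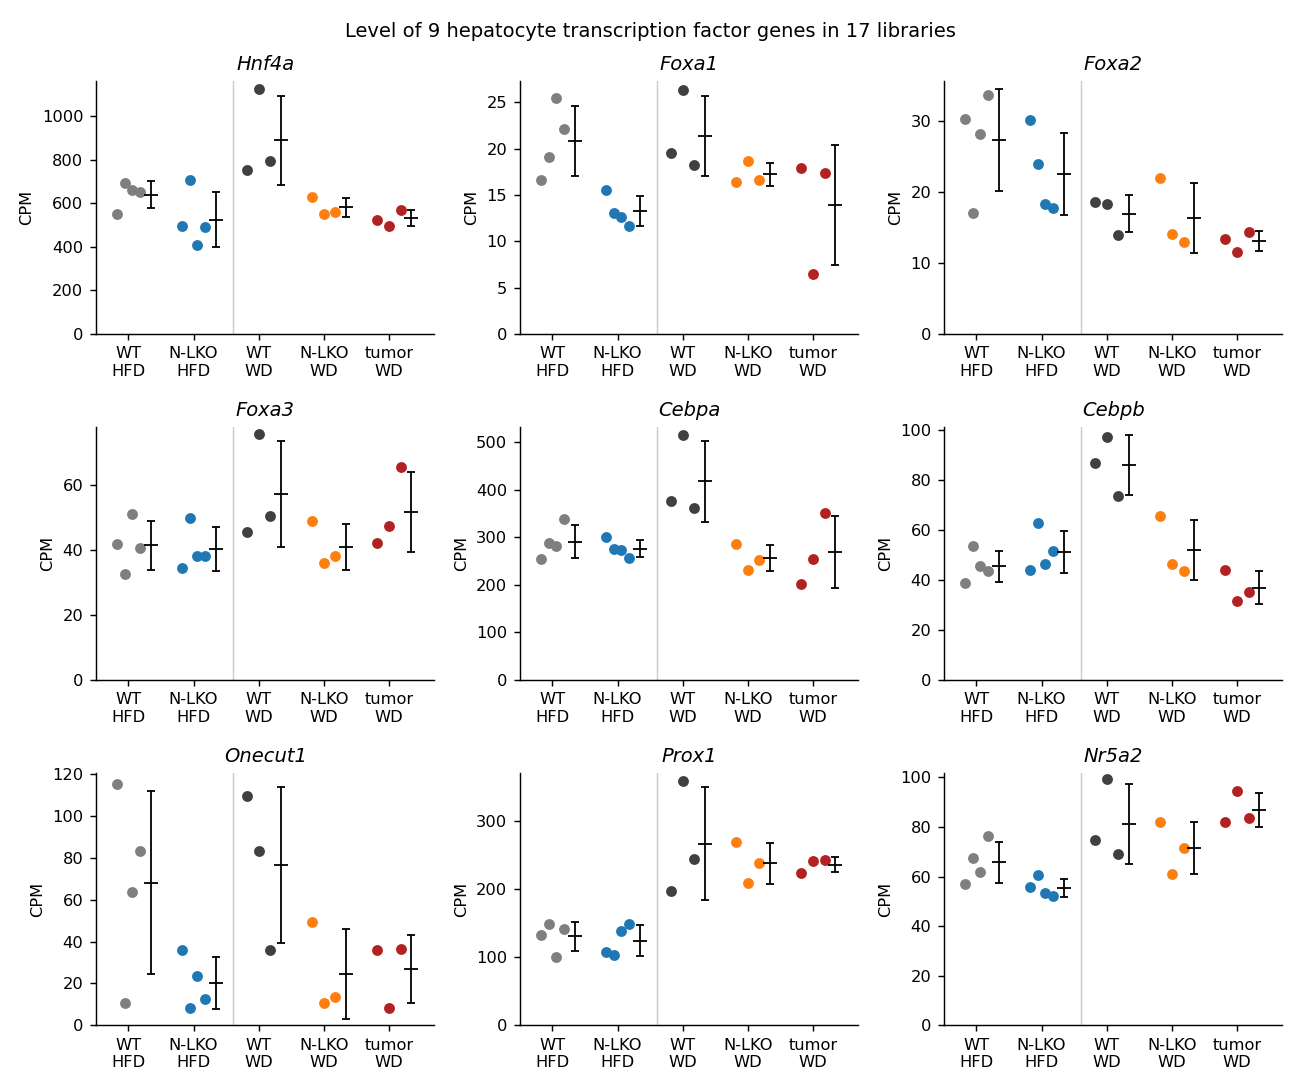
Level of each of the 9 genes in each library, in CPM on a linear axis that starts at 0, by group. Points are libraries, and the black marks are the mean ± SD of the group (n = 4 for HFD groups, n = 3 for WD groups). Cebpb and Hnf4a in tumors lie wholly below WT livers under WD, and Onecut1 ranges from 10.7 to 115 CPM among WT livers under HFD.

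Under HFD, Foxa1 was the member that differed between genotypes. It measured 16.7, 19.1, 25.5 and 22.1 CPM in the WT livers and 15.5, 13.1, 12.6 and 11.7 CPM in the N-LKO livers. Every N-LKO liver was below every WT liver, with the closest pair 1 WT library at 16.7 and 1 N-LKO library at 15.5 CPM. The level was 1.57-fold lower in N-LKO livers (log2 fold change −0.65, SE 0.141), with an edgeR quasi-likelihood adjusted p of 0.0269 over 13460 genes. That call made 1 of 9 members lower, where 2.29% of all genes were called lower, and the same gene was the 1 member lower without overlap, where 7.4% of all genes were. The call was lost when any of 5 libraries was left out (WT replicate 2, 3 or 4, N-LKO replicate 3 or 4), with adjusted p up to 0.0745 and log2 fold changes that stayed between −0.75 and −0.54 over all 8 omissions.

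The other forkhead genes did not pass under HFD. Foxa2 was 30.2, 17, 28.1 and 33.6 CPM in WT and 30.2, 23.9, 18.3 and 17.7 CPM in N-LKO livers, and Foxa3 was 41.7, 32.5, 51.0 and 40.5 CPM in WT and 34.5, 49.9, 38.2 and 38.0 CPM in N-LKO livers. Both overlapped between genotypes, with log2 fold changes of −0.27 (SE 0.212, adjusted p 0.480) and −0.04 (SE 0.145, adjusted p 0.891) by edgeR.

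Hnf4a measured 549, 691, 661 and 651 CPM in WT and 495, 706, 408 and 490 CPM in N-LKO livers. Of the N-LKO livers, 3 were below all WT livers and replicate 2 was above them, and the log2 fold change of −0.28 (SE 0.15) had an edgeR adjusted p of 0.286. Without that N-LKO replicate 2 it was −0.46 with an adjusted p of 0.0433. Nr5a2, the other nuclear receptor, was 57.1, 67.4, 61.9 and 76.4 CPM in WT and 55.8, 60.6, 53.2 and 52.2 CPM in N-LKO livers, where 3 N-LKO values lay below the lowest WT value (log2 fold change −0.24, SE 0.0986, edgeR adjusted p 0.165).

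The leucine zipper genes were close between genotypes under HFD. Cebpa was 255 to 339 CPM in WT and 257 to 300 CPM in N-LKO livers (log2 fold change −0.07, SE 0.0976, edgeR adjusted p 0.697). Cebpb was the 1 member of 9 with a positive value, at 39.0, 53.4, 45.7 and 43.5 CPM in WT and 44.2, 62.7, 46.4 and 51.6 CPM in N-LKO livers (log2 fold change 0.17, SE 0.126, adjusted p 0.441). Prox1 overlapped fully, at 100.7 to 149.3 CPM in WT and 103.9 to 148.8 CPM in N-LKO livers (−0.08, SE 0.144, adjusted p 0.797, and 0.075 with an offset for length and GC content). Over the 9 members the median log2 fold change was −0.24 (−0.15 without WT replicate 4), and over all genes tested −0.0058. Macrophage markers summed to 73.1 to 98.4 CPM in WT and 36.2 to 74.6 CPM in N-LKO livers under HFD, with 3 of 6 called lower by edgeR, and 1 of 3 tested cholangiocyte markers was called higher. The part of these markers in the values of the members was not tested.

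Onecut1 had the largest difference in size and the largest spread under HFD. Its level was 115, 10.7, 63.5 and 83.3 CPM in WT livers and 35.9, 8.24, 23.6 and 12.8 CPM in N-LKO livers. In WT, 3 livers were above all N-LKO livers, and WT replicate 2 lay among the lowest of the 8 libraries. The log2 fold change was −1.76 (SE 0.575), a 3.39-fold lower level, with an unadjusted edgeR p of 0.010 and an adjusted p of 0.0967. Without WT replicate 2 it was −2.12 with an adjusted p of 0.0371.

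**Figure D2:**
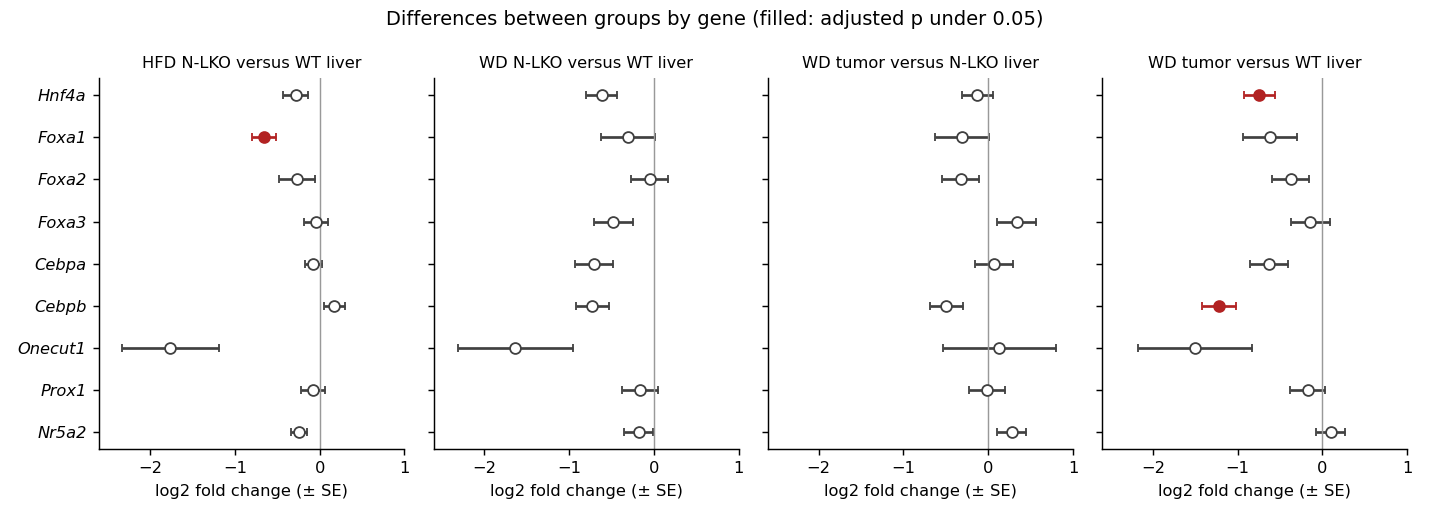
Log2 fold change of each gene with its standard error in 4 comparisons, the first-named group relative to the one after "versus". Filled red points passed an edgeR adjusted p of 0.05: Foxa1 under HFD, and Hnf4a and Cebpb in tumors against WT livers.

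Under WD, all 9 members had a negative log2 fold change in N-LKO against WT livers, with the sign of Foxa2 turning under other scalings, and 0 of 9 passed the edgeR test after adjustment. The share of all genes called in this comparison was 0% as well, although 2212 of 17829 genes had an unadjusted p under 0.05. Even Nus1, the targeted gene, did not pass there (log2 fold change −1.02, edgeR adjusted p 0.151). By the DESeq2 test and limma-voom also 0 members passed. At an unadjusted p under 0.05, 4 members were lower (Cebpb, Hnf4a, Cebpa and Onecut1), where 5.31% of all genes were lower by that rule. Hnf4a, Cebpa and Cebpb did not overlap between genotypes, 3 of 9 members against 13.6% of all genes lower without overlap. The median log2 fold change was −0.48 over the members and 0.013 over all genes. Without WT replicate 2, the library with the lowest TMM factor, the median over the members was −0.23 and 7 of 9 values were negative, with Foxa2 and Prox1 positive.

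Hnf4a measured 751, 1124 and 794 CPM in the WT livers under WD and 629, 551 and 561 CPM in the N-LKO livers. Every N-LKO liver was lower than every WT liver (log2 fold change −0.62, SE 0.183, unadjusted edgeR p 0.00695, adjusted p 0.353). Without WT replicate 2, the highest library, the difference was −0.41. Cebpa showed the same order, at 376, 517 and 362 CPM in WT and 286, 230 and 252 CPM in N-LKO livers (−0.71, SE 0.225, unadjusted p 0.0101, adjusted p 0.353). Cebpb was 87.0, 97.5 and 73.5 CPM in WT and 65.6, 46.4 and 43.8 CPM in N-LKO livers, again without overlap (−0.73, SE 0.193, unadjusted p 0.00361, adjusted p 0.353). The 7 hepatocyte markers had a median log2 fold change of −0.46 in the same comparison, with 0 of 7 called by edgeR, and their part in these differences was not tested.

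The remaining members overlapped between the WD genotypes. Foxa1 was 19.6, 26.3 and 18.2 CPM in WT and 16.4, 18.7 and 16.6 CPM in N-LKO livers (−0.31, SE 0.321, edgeR adjusted p 0.688). Foxa3 was 45.4, 75.8 and 50.4 CPM in WT and 49.0, 35.8 and 38.1 CPM in N-LKO livers (−0.48, SE 0.231, adjusted p 0.425). Foxa2 stood at 13.9 to 18.5 and 13.0 to 21.9 CPM (−0.05, adjusted p 0.934), Prox1 at 198 to 358 and 208 to 269 CPM (−0.16, adjusted p 0.753), and Nr5a2 at 68.9 to 99.5 and 61.0 to 82.2 CPM (−0.18, adjusted p 0.657). For Foxa2 the sign turned under upper-quartile scaling (0.0079) and with the length and GC offset (0.082). Onecut1 was 110, 83.4 and 36.1 CPM in WT and 49.5, 10.8 and 13.3 CPM in N-LKO livers, overlapping through 1 library of each genotype (−1.64, SE 0.678, unadjusted p 0.0360, adjusted p 0.386).

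In tumors, Cebpb and Hnf4a were lower than in WT livers under WD. These were 2 of 9 members called lower, where 6.8% of all genes were called lower by the same edgeR test. Cebpb measured 44, 31.4 and 35.3 CPM in tumors against 87.0, 97.5 and 73.5 CPM in WT livers, a 2.33-fold lower level with no overlap (log2 fold change −1.22, SE 0.196, adjusted p 0.00863). The call held in 9 of 9 fits that left out a library and in 11 of 11 other alternatives, with the smallest difference under the length and GC offset (−0.93, adjusted p 0.0337). Cebpb shares 908 bases with Tmem189 on the opposite strand, and whether counting used strand was not given in the sources used here, so the level of Cebpb is uncertain. Tmem189 had a median of 427 counts under WD, against 977 for Cebpb, and was itself lower in tumors (−1.75, SE 0.450, adjusted p 0.0310). With both counted as 1 gene, an alternative chosen after seeing the data, the log2 fold change was −1.34 with an adjusted p of 0.00834.

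Hnf4a measured 524, 497 and 570 CPM in tumors, below the 751, 1124 and 794 CPM of WT livers in every library. The level was 1.68-fold lower (log2 fold change −0.75, SE 0.183, edgeR adjusted p 0.0266). The adjusted p passed 0.05 without WT liver replicate 2 (−0.55, adjusted p 0.0726), without N-LKO liver replicate 3 (adjusted p 0.0501) and without tumor replicate 2 (adjusted p 0.0566). It was also over the threshold when only tumors and WT livers were fitted (−0.77, adjusted p 0.0752).

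Cebpa and Foxa1 did not overlap between tumors and WT livers either, which made 4 of 9 members lower without overlap where 16.4% of all genes were. Cebpa was 201, 255 and 351 CPM in tumors (−0.64, SE 0.224, edgeR adjusted p 0.0814), with the highest tumor close to the lowest WT liver at 362 CPM. Without that tumor, replicate 3, the difference was −0.88 with an adjusted p of 0.0327, and DESeq2 gave −0.65 with an adjusted p of 0.0337 on all libraries. Foxa1 was 17.9, 6.45 and 17.4 CPM in tumors, where replicate 2 was low and the others lay just below the lowest WT liver at 18.2 CPM (−0.62, SE 0.323, adjusted p 0.213). Without tumor replicate 2 the value was −0.31 with an adjusted p of 0.293.

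The other 5 members overlapped between tumor and WT liver. Foxa2 was 13.3, 11.5 and 14.3 CPM in tumors (−0.38, SE 0.216, edgeR adjusted p 0.255) and Foxa3 was 42.2, 47.4 and 65.5 CPM (−0.15, SE 0.230, adjusted p 0.696). Prox1 was the steadiest member among tumors, at 224, 242 and 243 CPM (−0.18, SE 0.209, adjusted p 0.592). Nr5a2 was 82.0, 94.6 and 83.6 CPM in tumors and the 1 member with a positive log2 fold change (0.10, SE 0.169, adjusted p 0.727), which was −0.014 at the lowest when 1 library was left out. Onecut1 was 36.0, 8.45 and 36.4 CPM in tumors, and 2 of these lay next to the lowest WT liver at 36.1 CPM (−1.50, SE 0.675, unadjusted p 0.0496, adjusted p 0.153). The median log2 fold change was −0.62 over the members (−0.33 without tumor replicate 2) and 0.041 over all genes tested. In the same comparison the 7 hepatocyte markers had a median of −0.54 with 2 called lower by edgeR, and the 6 macrophage markers a median of −0.96 with 1 called lower. Of 7 cholangiocyte markers 2 were called higher. The part of these markers in the differences of the members was not tested.

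Against N-LKO livers, tumors differed in 0 of 9 members by the edgeR test, where 0.499% of all genes were called, and DESeq2 and limma-voom also called 0. This comparison and the previous pair share libraries, so their values are not independent. Cebpb had the lowest unadjusted p, at 44, 31.4 and 35.3 CPM in tumors and 65.6, 46.4 and 43.8 CPM in N-LKO livers (−0.49, SE 0.194, unadjusted p 0.0288, adjusted p 0.218). The groups overlapped through 1 tumor, and it was the 1 member with an unadjusted p under 0.05. The log2 fold changes of Hnf4a (−0.13, SE 0.182), Foxa1 (−0.31, SE 0.322) and Foxa2 (−0.33, SE 0.215) were negative and those of Foxa3 (0.33, SE 0.230) and Nr5a2 (0.28, SE 0.169) positive, with adjusted p between 0.413 and 0.75 for these 5. Foxa1 was at 0.027 without tumor replicate 2. Cebpa (0.07), Onecut1 (0.13) and Prox1 (−0.01) had adjusted p over 0.90, and each of these 3 changed sign in some alternatives. The median over the members was −0.01 and over all genes 0.015, so the median of the members lay near that of all genes here.

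The N-LKO against WT difference under WD was compared with that under HFD by an interaction term fitted on 14 livers and 15850 genes. By edgeR 0 of 9 members passed, where 1.62% of all genes were called, and 2 members had an unadjusted p under 0.05. Cebpb came closest: its log2 fold change was 0.17 under HFD and −0.73 under WD, and the difference of −0.88 (SE 0.220) had an adjusted p of 0.0545. Cebpa followed, with −0.07 under HFD and −0.71 under WD and a difference of −0.61 (SE 0.184, adjusted p 0.0905). By DESeq2 both passed (adjusted p 0.00899 and 0.0262) and by limma-voom Cebpb did (adjusted p 0.0485). With the length and GC offset the difference for Cebpb was −0.54 with an adjusted p of 0.199, and over all its alternatives the adjusted p ran from 0.00899 to 0.199. The other 7 members had edgeR adjusted p from 0.352 for Foxa1 (0.37, SE 0.214) to 0.950 for Onecut1 (0.15, SE 0.933). The 257 genes behind the share of all genes called became 36 with the length and GC offset and 22 without N-LKO WD liver replicate 3. Diet cannot be told apart from the table in which a library was processed, so levels were not compared between diets.

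The ratio of Cebpb to Cebpa CPM, computed per library, described the balance of the leucine zipper genes. It was 0.157 ± 0.0237 (SD, n = 4) in WT and 0.186 ± 0.0356 (n = 4) in N-LKO livers under HFD. Under WD it was 0.208 ± 0.0218 (n = 3) in WT livers, 0.202 ± 0.0281 (n = 3) in N-LKO livers and 0.148 ± 0.0630 (n = 3) in tumors. The ratio ranges of WT and N-LKO livers overlapped within each diet. That of tumors (0.101 to 0.219) overlapped those of WT livers (0.189 to 0.232) and N-LKO livers (0.173 to 0.230) under WD. The uncertainty in the level of Cebpb from Tmem189 applies to the ratio too.

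The spread between libraries of a group set Onecut1 apart from the other members. The standard deviation of its log2 CPM within groups was 1.26 under HFD, with 43 of 13460 genes above it, and 1.09 under WD, with 394 of 17829 above it. The other 8 members lay between 0.136 (Cebpa) and 0.397 (Foxa2) under HFD and between 0.201 (Hnf4a) and 0.509 (Foxa1) under WD, where the medians over all genes were 0.211 and 0.296. The highest library was 10.7 times the lowest among WT livers under HFD, and 3.03 to 4.57 times in the other 4 groups. Onecut1 shares its strand and 29556 bases of its span with Gm20649, which had 0.105 to 65.3 counts per library against 100 to 1598 for Onecut1. Its counts were fractional in all 17 libraries. Counting both as 1 gene, also chosen after seeing the data, left the log2 fold changes at −1.76 under HFD, −1.63 under WD and −1.46 for tumors against WT livers, with adjusted p of 0.0920, 0.386 and 0.165.

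**Figure D3:**
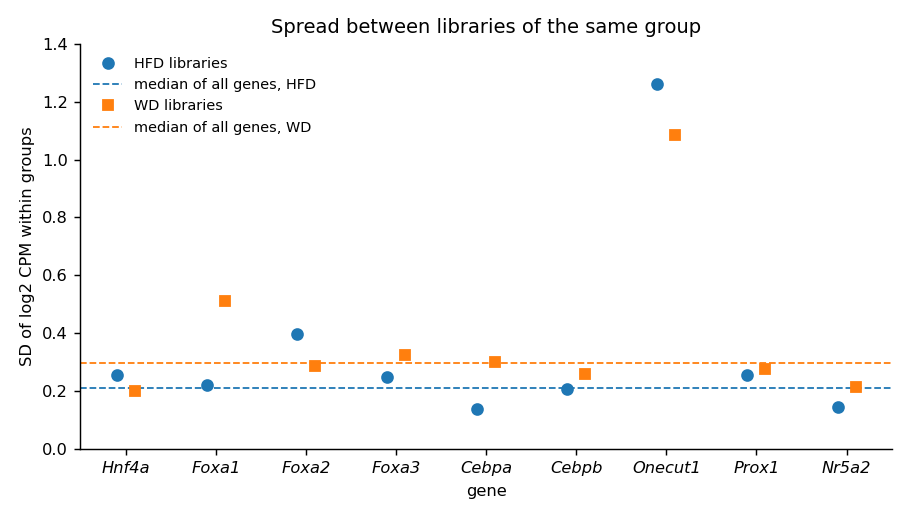
Standard deviation of log2 CPM between libraries of the same group, pooled over the groups of a diet, for the 9 genes; dashed lines are the medians over all genes tested. Onecut1 stands at 1.26 under HFD and 1.09 under WD, and the other 8 genes lie at or below 0.509.

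For each member, the genes with the most similar course over the 17 libraries were found by Pearson correlation of log2 CPM, centred within each table, among 8629 genes. The points share libraries and groups, so these values are descriptions. Cebpa was closest to Hagh (r = 0.960) and Sardh (0.935), which encode metabolic enzymes, and Hnf4a to Dnajc11 (0.939) and Sf1 (0.924). Foxa1 was closest to N4bp2 (0.947) and Tspan12 (0.922), and Cebpb to Map1lc3b (0.934), an autophagy gene, and Tmem94 (0.926). For Nr5a2 the closest genes were Lman1 (0.877) and Kdelr2 (0.856), which both act in transport between the ER and the Golgi. Foxa2 had Ulk3 (0.841) and Phlda1 (0.803), Foxa3 had Poldip2 (0.840) and Aph1a (0.819), and Prox1 had Met (0.792), the hepatocyte growth factor receptor, and Rasal2 (0.757). Onecut1 was closest to Foxred1 (0.867) and Slc23a1 (0.825), a vitamin C transporter. In WT livers under HFD, Slc23a1 was 67.6, 38.9, 49.5 and 52.4 CPM, lowest in replicate 2 as Onecut1 was, and among tumors it was 43.4, 21.2 and 38.4 CPM, again lowest in replicate 2. Slc23a1 was picked by its correlation with Onecut1 over these same libraries, so this match is not separate evidence.

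Genes around the 9 factors were counted in lists. Of 21 other hepatocyte regulators, 0 were called by edgeR in N-LKO against WT livers under WD and 13 in tumors against WT livers, 12 of them lower. The largest of those were Tbx3 (−2.33), the xenobiotic receptor gene Nr1i3 (−1.82), the retinoid receptor gene Rxra (−1.20) and Nr2f6 (−0.96), with adjusted p between 0.00895 and 0.0187. Of 7 tested family relatives of the members, such as Cebpd and Onecut2, 0 passed in any of the 5 comparisons by edgeR.

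Among 27 tested genes for hepatocyte products, 1 was called lower under HFD (Apob, −0.52, edgeR adjusted p 0.0220), where 2.29% of all genes were. Under WD all 27 had negative values in N-LKO livers with 0 called, where 48.6% of all genes had negative values. The 7 hepatocyte markers are all in this list, so its values are not independent of theirs. The lowest p values under WD were those of Proc (−0.57) and Ttr (−0.58), both with edgeR adjusted p 0.353. In tumors against WT livers 10 of 27 were called lower, where 6.8% of all genes were. They were led by Cyp8b1 (−2.26) of bile acid synthesis, Pck1 (−1.87) of gluconeogenesis, and Tat (−1.74) and Hpd (−1.39) of tyrosine breakdown. Known targets overlap with that list: 5 of 12 HNF4A targets, 2 of 10 C/EBP targets, 1 of 8 NR5A2 targets and 3 of 9 FOXA and ONECUT1 targets were lower in tumors, and 0 were higher. The share of all genes called lower there was again 6.8%. These counts share genes and are not independent. Pck1 was in the HNF4A, the C/EBP, and the FOXA and ONECUT1 lists, and Tat in the C/EBP and the FOXA and ONECUT1 lists. Ttr was in the HNF4A and the FOXA and ONECUT1 lists, and Cyp8b1 in the HNF4A and NR5A2 lists. Under HFD the HNF4A target Apob was lower, and in the lists of C/EBP, NR5A2, and FOXA and ONECUT1 targets 0 genes passed. In the interaction the HNF4A targets Apoc3 (−0.93, edgeR adjusted p 0.0332) and Apoa2 (−0.74, adjusted p 0.0455) passed. For both, the N-LKO against WT log2 fold change was lower under WD than under HFD.

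Genes of the fetal liver and of progenitors went the other way. Their list shares Sox9 with the cholangiocyte markers, whose sum was also higher in N-LKO livers and tumors than in WT livers. The part of bile duct cells in the calls of this list was not tested. Under HFD, Sox4 (1.54) and Cd24a (1.37) were higher in N-LKO livers, 2 of 4 tested, where 2.56% of all genes were called higher by edgeR. Under WD 0 of 7 were called in N-LKO against WT livers, by a test that called 0 genes in all. In tumors 5 of 7 tested genes were higher than in WT livers and 3 of 7 higher than in N-LKO livers by edgeR, where 8.08% and 0.437% of all genes were called higher. Among them was Afp at 10.1 to 15.8 CPM against 0.775 to 1.10 CPM in WT livers. H19 was 687, 11041 and 489 CPM in tumors and at most 4.60 CPM in any WD liver. Igf2 was 334 CPM in tumor replicate 2 and 1.81 and 0.261 CPM in the others. Tumor replicate 2, with the highest H19 and Igf2, was also the tumor with the lowest Hnf4a, Foxa1, Foxa2, Cebpb and Onecut1, whereas Nr5a2 was highest there and Cebpa, Foxa3 and Prox1 were lowest in replicate 1. With 3 tumors this was not tested.

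**Figure D4:**
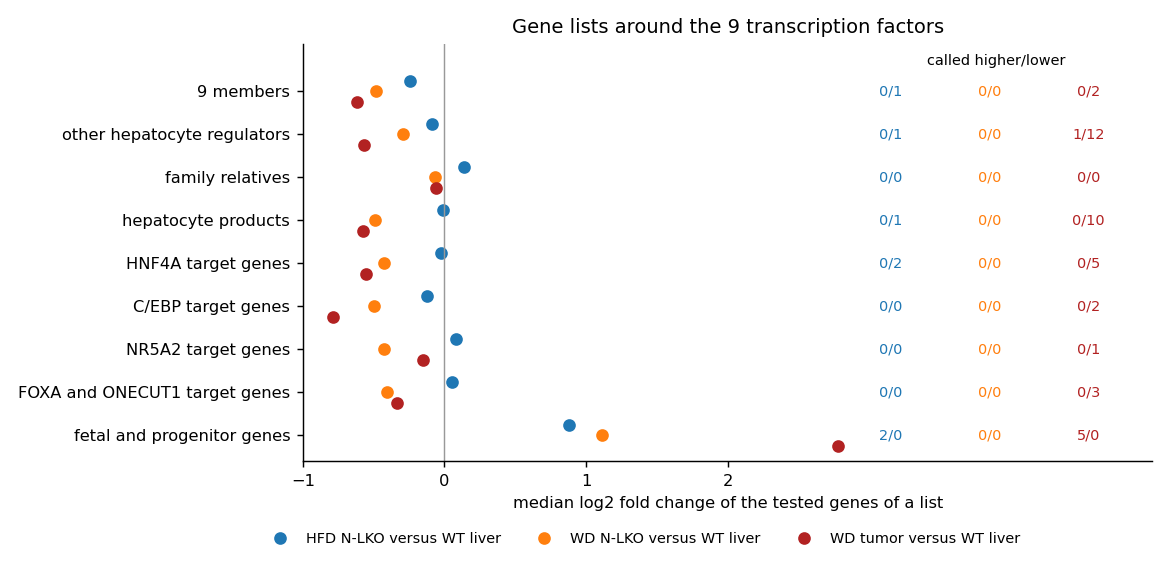
Median log2 fold change of the tested genes of each list in 3 comparisons (points), with the number of genes called higher and lower (edgeR adjusted p under 0.05) at the right. The 9 members have medians of −0.24, −0.48 and −0.62, and the fetal and progenitor list lies on the other side of 0.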

How the data were processed

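RNA-seq was carried out on 17 mouse samples, grouped by their titles. Per the paper's methods, the authors removed rRNA with Ribo-Zero, used a TrueSeq Small RNA kit, sequenced single-end reads on a HiSeq and aligned them with TopHat2, whereas the submitters' processing notes name STAR, Partek and mm9. Coordinates in the files matched GENCODE M21 (GRCm38) for 18540 of 19151 HFD genes and 23360 of 24233 WD genes. The values deposited for each gene are estimated counts, not scaled, which the authors made in Partek by dividing shared reads between features. The Partek version and the annotation release are not given in the sources used here. Whole numbers made up 69.3% (HFD) and 66.2% (WD) of values.

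Estimated counts were rounded and tested in edgeR 4.0.16 (R 4.3.3; quasi-likelihood F test, TMM, filterByExpr) over all genes, with Benjamini-Hochberg adjusted p under 0.05 as the call. HFD livers were fitted alone and the 3 WD groups together. The SE is the log2 fold change divided by the square root of F. CPM used TMM-scaled library sizes, and CPM per kilobase the transcript length. Replicates are called biological in the labels; p-values measure the spread between these samples. The members and the gene lists were chosen with earlier results of these data known. All 9 members are named in every comparison; of the other lists the text names called genes, at most the 4 with the largest change, or genes with the lowest p. The marker Tf was not analysed here. Some genes of the lists are counted but not reported here by name. Of the columns of values, 0 had no sample.

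Whether shared replicate numbers pair the samples is not known. Correlations of deviations between libraries with the same number ran from −0.08 to 0.11 (HFD) and −0.12 to 0.10 (WD). These values did not show a pairing and cannot exclude one. Alternatives were DESeq2 1.42.0 (size factors and Wald test), upper-quartile scaling, other filters, limma-voom (limma 3.58.1), a replicate block, an offset for length and GC content, fits of only the groups compared, and leaving out each library. The fits were tested on simulated data.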

Additional observations from a re-analysis of the deposited data

How the results depend on the processing

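Of the log2 fold changes of single members under all alternatives, 812 kept direction and call, 13 lost a call, 11 gained one and 47 changed sign. The number of members called ran, over fits without 1 library, from 0 to 2 under HFD, from 1 to 3 for tumor against WT liver and from 0 to 1 for the interaction. It stayed at 0 for N-LKO against WT liver under WD and for tumor against N-LKO liver. For tumor against WT liver it was 1 with only those groups fitted, and for the interaction 2 with DESeq2 and 1 with limma-voom. The cause was not tested. The replicate block gave 1 member for tumor against WT liver, alone and with the length and GC offset, since Hnf4a then had adjusted p of 0.0548 and 0.0590. Under HFD it kept the count at 1 but gave Onecut1 (adjusted p 0.0305, with the offset 0.0464) in place of Foxa1 (0.0560 and 0.0752).

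Values near 0 changed sign. With the length and GC offset, alone or with the block, Prox1 under HFD was 0.075 and 0.072, Foxa2 under WD 0.082 and 0.051, and Nr5a2 in the interaction −0.12 and −0.11. Upper-quartile scaling gave 0.0079 for Foxa2 under WD and 0.00036 for Prox1 in tumor against N-LKO liver, where the offset gave 0.013. Cebpa in that comparison was −0.0015 with block and offset. Onecut1 in the interaction was −0.26 with limma-voom, −0.17 with the block and −0.22 with block and offset. Leaving out 1 library moved the following across 0. Under HFD these were Foxa3 (−0.17 to 0.072), Cebpa (−0.13 to 0.0090) and Prox1 (−0.18 to 0.0012), and under WD Foxa2 (−0.32 to 0.088) and Prox1 (−0.34 to 0.10). For tumor against N-LKO liver they were Foxa1 (−0.54 to 0.027), Cebpa (−0.17 to 0.24), Onecut1 (−0.23 to 1.16) and Prox1 (−0.10 to 0.083). For tumor against WT liver they were Foxa3 (−0.35 to 0.11), Prox1 (−0.36 to 0.092) and Nr5a2 (−0.014 to 0.27). In the interaction they were Foxa2 (−0.025 to 0.42), Onecut1 (−0.87 to 0.61), Prox1 (−0.24 to 0.18) and Nr5a2 (−0.020 to 0.24).

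The number of all genes called also moved. It was 652 under HFD, but 1000 with DESeq2, 289 with the offset, 168 with block and offset and 179 to 597 without 1 library. For N-LKO against WT liver under WD it was 0, but 100 with DESeq2 and 6 with only those groups fitted. For tumor against N-LKO liver it was 89, but 1021 with DESeq2, 18 with limma-voom, 58 with a mean of at least 1 CPM, 29 with only those groups, 36 and 39 with the block and 3 to 2193 without 1 library. For tumor against WT liver it was 2653, but 705 with only those groups, 1760 with block and offset and 569 to 3819 without 1 library. For the interaction it was 257, but 981 with DESeq2, 36 with the offset, 0 with the block, alone or with the offset, so that the calls of Apoc3 and Apoa2 were lost there, and 22 to 330 without 1 library.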
